A study of Homo sapiens with 6 samples.

Results

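The genes described here are the 4 human fibroblast growth factor (FGF) receptor genes FGFR1, FGFR2, FGFR3 and FGFR4, 4 feedback inhibitors of the pathway (SPRY1, SPRY2, SPRY4 and SPRED1) and 2 transcription factor genes at its end (ETV4 and ETV5). They were chosen by symbol, and all 10 were found among the 17891 genes of the expression table. RNA sequencing covered 6 libraries of T47D, an established luminal breast cancer line. In 3 of them, the PRL group, the cells carried a PLVX-puro lentivirus with the prolactin gene PRL, and in the other 3, the control group, the lentivirus without it. Both groups grew in RPMI1640 medium with serum for 2 days, and the labels give no other treatment. The sources used here do not give the promoter that drives the lentiviral gene, or whether the screened cells were pools or single clones. The series calls the libraries biological replicates but does not say that they came from separate transductions or cultures, so p-values measure the spread between these libraries.

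FGF receptors are tyrosine kinases at the cell surface. When an FGF and heparan sulfate bring a pair of them together, they phosphorylate the adaptor FRS2, which recruits GRB2, SOS and SHP2 and turns on RAS and the ERK kinases. ERK signalling raises transcription of Sprouty genes and of the PEA3-type ETS factors ETV4 and ETV5, which makes these transcripts common markers of its output. Sprouty and SPRED proteins dampen RAS-ERK signalling. In breast epithelium FGFR2 takes part in duct growth, and FGFR1 lies in a region that is often amplified in luminal tumours. Only transcripts were measured here, not receptor protein or phosphorylation.

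The libraries held 16211146 to 17402348 estimated gene counts. PRL itself lay at 0.0624 to 0.203 CPM, counts scaled to library size, in controls and 444.5 to 458.3 CPM with PRL, in the direction of the labels. CPM is scaled with TMM (trimmed mean of M values), whose factors were 0.848 to 0.955 in controls and 1.08 to 1.11 in the PRL group. Controls were more scattered than PRL libraries, with first principal component values of -61.0 to -43.5 against 51.3 to 52.9. All 10 luminal markers had more than 3 counts in every library. The same held for all 6 immune markers and, of the stromal ones, for COL1A1 alone (678 to 1297 counts). The basal keratin gene KRT5 and the stromal genes COL3A1, DCN and LUM had at most 3. Of the luminal genes, PGR, GATA3, FOXA1 and CDH1 were higher with PRL (adjusted p by edgeR under 0.05 for each). ESR1, KRT8, KRT18 and KRT19 were lower at the same threshold, and TFF1 had only 8 to 16 counts. Of 6 basal markers 4 had more than 3 counts in every library. Among these TP63 and OXTR were higher with PRL and ACTA2 was lower (adjusted p by edgeR = 0.00186, 6.6e-04 and 2.4e-05), and the part of basal markers in the results was not tested. The summed level of 6 immune markers was 8.90 to 11.4 TPM (transcripts scaled to length and library) in controls and 25.9 to 27.6 TPM with PRL, mostly through CD68, at 2.99 to 3.86 against 14.7 to 15.6 CPM. Of the 6 immune markers, CD68, CD14 and CD3E were higher with PRL and LYZ was lower (adjusted p by edgeR = 6.1e-07, 0.0142, 0.0306 and 0.0119). The pan-leukocyte gene PTPRC did not pass (0.925 ± 0.0828 and 0.950 ± 0.247 CPM, SD, n = 3), and the part of the immune markers in the results below was not tested. In bulk RNA, fewer cells that express a gene and less of its RNA per cell cannot be told apart.

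The comparison asked how these transcripts differ between T47D cells with and without the prolactin gene. Prolactin overexpression went with a changed make-up of FGF receptor transcripts: FGFR2 fell 3.16-fold, FGFR1 rose 2.3-fold, and FGFR3 and FGFR4 rose by smaller factors. SPRY1 and SPRY4 rose, SPRED1 fell, and SPRY2, ETV4 and ETV5 were not called. Of the 9 genes tested, 5 were higher in the PRL group at an adjusted p under 0.05 in edgeR's quasi-likelihood test, where 32.4% of all 14076 genes tested were, and 2 were lower, where 30.5% of all genes were. ETV5 did not pass the filter on low counts, and SPRY4 passed it only through its PRL libraries, where it was high. The groups did not overlap in CPM for 7 of the 9, against 69.5% of all genes. With library totals in place of TMM the calls over all genes were 6431 higher and 2394 lower, against 4554 and 4300. A call is therefore common in this comparison, and the counts of calls alone do not set these genes apart from the rest. Below, a log2 ratio is PRL over control with its standard error (SE), and means carry the SD over 3 libraries.

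**Figure D1:**
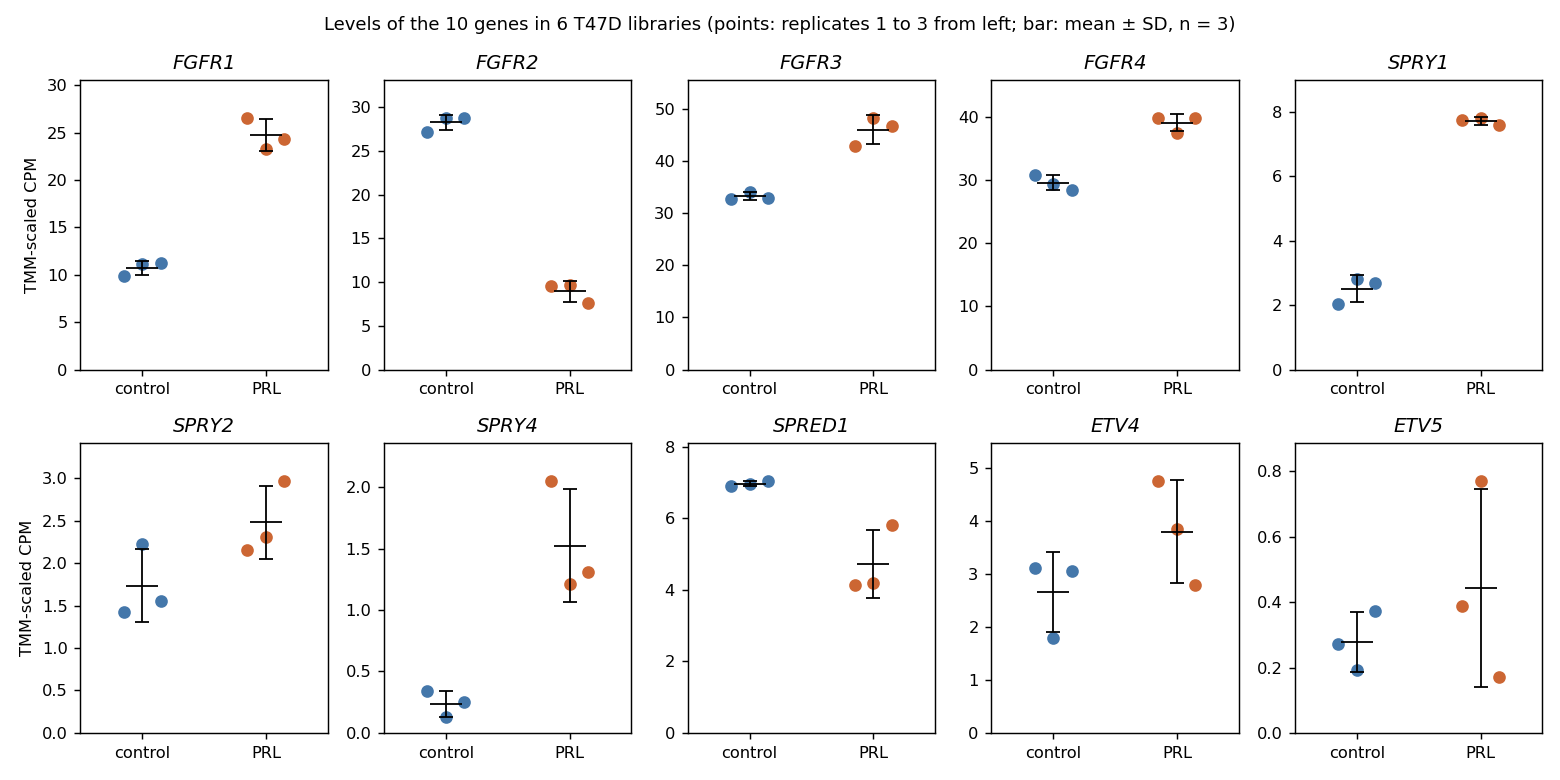
TMM-scaled CPM (vertical axes, each from 0) of the 10 genes in the control and PRL libraries, with each library as a point and the mean ± SD (n = 3) as bars. FGFR2 lies at 27.2 to 28.8 CPM in controls and 7.59 to 9.64 CPM with PRL, while FGFR1 lies at 9.90 to 11.2 and 23.3 to 26.6 CPM.

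Among the receptors, FGFR2 was the one that fell. FGFR2 (NCBI gene 2263, GRCh38 chromosome 10, 121478334 to 121598458, minus strand) had 27.2, 28.7 and 28.8 CPM in control replicates 1 to 3 and 9.58, 9.64 and 7.59 CPM in PRL replicates 1 to 3. Every PRL library lay far below every control, and PRL replicate 3 was the lowest. The means were 28.2 ± 0.857 and 8.94 ± 1.17 CPM, with a log2 ratio of -1.66 (SE 0.11, adjusted p by edgeR = 1.0e-06), or 3.16-fold lower. Its TPM, a level per transcript length, was 8.32, 10.5 and 10.7 in controls and 4.95, 4.89 and 3.61 in the PRL group.

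FGFR1 moved the other way. FGFR1 (NCBI gene 2260) had 9.90, 11.1 and 11.2 CPM in the controls and 26.6, 23.3 and 24.3 CPM in the PRL libraries, so the lowest PRL library held more than 2 times the CPM of the highest control. The means were 10.7 ± 0.735 and 24.7 ± 1.72 CPM (log2 ratio 1.20, SE 0.10, adjusted p by edgeR = 5.3e-06). On the genome, 2.12% of its exon bases are shared with genes on the opposite strand, LETM2 among them, and the use of strand in counting is not given.

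FGFR3 and FGFR4 both rose. FGFR3 (NCBI gene 2261, chromosome 4, 1793293 to 1808872, plus strand) had 32.6, 34.1 and 32.9 CPM in controls and 42.9, 48.3 and 46.7 CPM with PRL (log2 ratio 0.47, SE 0.08, adjusted p by edgeR = 4.6e-04). FGFR4 (NCBI gene 2264, chromosome 5, 177086886 to 177098144, plus strand) had 30.8, 29.4 and 28.5 CPM in controls and 39.9, 37.5 and 39.9 CPM with PRL (log2 ratio 0.40, SE 0.08, adjusted p by edgeR = 0.00107). Neither gene's groups overlapped, and the rises were 1.38-fold and 1.32-fold. The 4 receptors kept these directions and calls in all 17 alternative analyses, including each library left out.

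The receptor make-up within a library does not depend on scaling between libraries. FGFR2 made up 25.5%, 26.2% and 27.1% of the summed receptor TPM in controls and 8.53%, 8.67% and 6.50% in the PRL group, a difference of -18.4 percentage points between means. FGFR1 went from 6.96%, 8.07% and 8.64% to 16.3%, 14.5% and 15.3%. FGFR2 thus went from the third largest share to the smallest, and FGFR1 from the smallest to the third largest. FGFR3 had a mean share of 29.3% ± 0.504 in controls and 34.8% ± 1.97 in the PRL group, and FGFR4 36.5% ± 1.39 and 41.9% ± 1.37. No share overlapped between groups, and each gave p = 0.10 in a two-sided exact permutation test (also 0.10 adjusted over the 4 shares), the smallest p that 3 against 3 libraries allow. The 4 shares add up to the whole, so a smaller FGFR2 share makes the others together larger, and the 4 are not independent results. Without FGFR2 the summed level was 73.5 ± 1.02 CPM in controls and 109.8 ± 0.966 CPM with PRL. In TPM the same sum was 27.6 ± 2.86 and 52.2 ± 0.838, a larger difference than in CPM. Of these TPM means FGFR3 held 11.0 and 19.7 TPM and FGFR4 13.6 and 23.7 TPM, smaller parts with PRL than in controls. Shares without FGFR2 were not tested. The summed level of all 4 receptors was 101.7 ± 1.44 CPM in controls and 118.7 ± 0.238 CPM with PRL. In TPM, which was higher with PRL for the median gene, it was 37.4 ± 4.17 and 56.7 ± 1.30. Relative to its level, the sum differed less than FGFR1 or FGFR2 did.

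**Figure D2:**
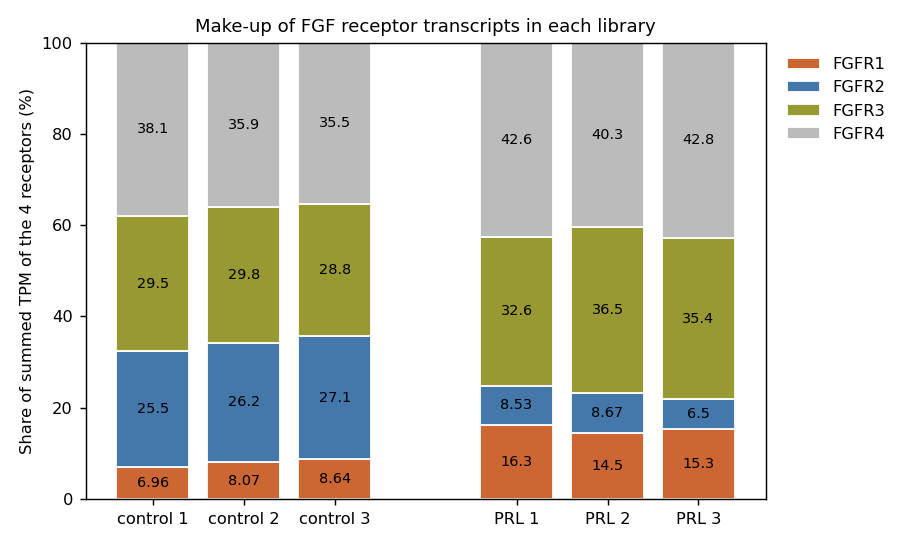
Share of each receptor in the summed TPM of FGFR1, FGFR2, FGFR3 and FGFR4 (vertical axis, percent) in each of the 6 libraries, with the share printed in each segment. The FGFR2 segment is 25.5% to 27.1% in controls and 6.50% to 8.67% in the PRL group, and the FGFR1 segment 6.96% to 8.64% and 14.5% to 16.3%.

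In order of mean TPM, controls held FGFR4 (13.6), FGFR3 (11.0), FGFR2 (9.86) and FGFR1 (2.97). FGFR3 lay above FGFR2 in each of the 3 controls, although their ranges over the libraries overlapped. In the PRL group the order was FGFR4 (23.7), FGFR3 (19.7), FGFR1 (8.71), SPRY1 (5.32) and FGFR2 (4.48). FGFR2 in turn lay above ETV4 (3.32) in each PRL library, although these ranges also overlapped. For the median gene TPM was higher in the PRL group: over the genes tested the median log2 ratio was 0.39 on log2(TPM + 1) and 0.01 on the TMM scale. Orders within a group do not depend on that shift.

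The counts and FPKM values together imply the mean transcript length that the authors' quantification used for each library. Such a length can follow the mix of transcripts counted. For FGFR2 it was 3795, 3794 and 3801 bases in controls and 3593, 3557 and 3723 bases in the PRL group, so it was shorter in each PRL library. The other receptors went the other way, with PRL over control ratios of 1.06 for FGFR1, 1.05 for FGFR3 and 1.04 for FGFR4. For FGFR1 the groups overlapped, at 4655 to 5072 bases in controls and 5049 to 5223 bases with PRL, while for FGFR3 and FGFR4 they did not. Over 10873 genes with an FPKM of at least 1 in every library the median ratio was 1.0, with quartiles of 1.0 and 1.02. FGFR2 is spliced into epithelial and mesenchymal forms with different ligand preference, and the data do not separate them. The implied length was not tied to either form, and the source of its shift was not tested.

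**Figure D3:**
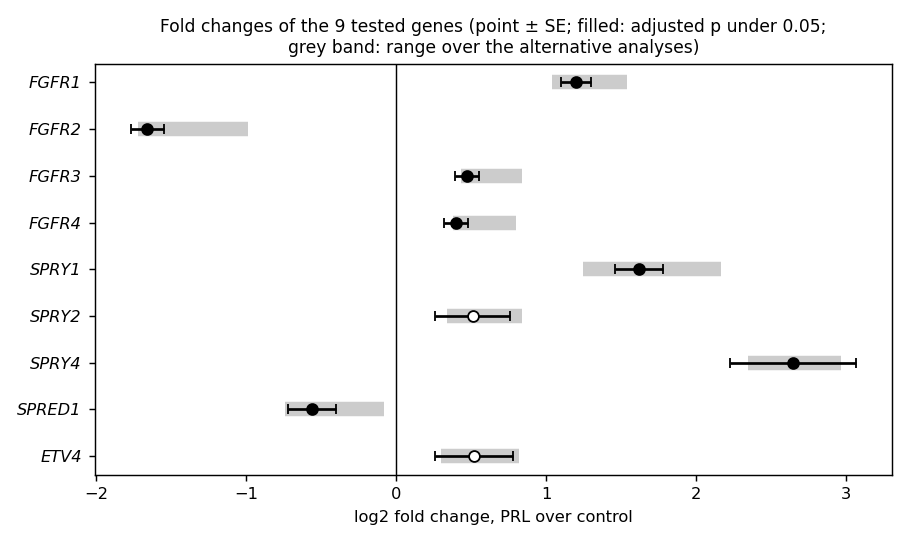
Log2 ratio of PRL over control (horizontal axis) for the 9 tested genes, as the edgeR estimate ± SE, with filled points for an adjusted p under 0.05 and a grey band from the lowest to the highest value over the alternative analyses. FGFR2 lies at -1.66 with a band of -1.72 to -0.99, and SPRED1 at -0.56 with a band of -0.74 to -0.08.

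Sprouty genes encode inducible inhibitors that act on RAS-ERK signalling downstream of FGF and other receptor kinases. The stretches of 250 bases before transcript starts of SPRY1, which rose, and SPRY4 and FGFR2, which had the largest rise and fall of the 10 genes, are shown so that the letters can be compared. They are from RefSeq on GRCh38.p14, written 5′ to 3′ on the gene's strand. Capitals mark the ETS core CCGGAA or the STAT site TTCNNNGAA on either strand.
SPRY1, second start, plus strand, chr4:123398136-123398385: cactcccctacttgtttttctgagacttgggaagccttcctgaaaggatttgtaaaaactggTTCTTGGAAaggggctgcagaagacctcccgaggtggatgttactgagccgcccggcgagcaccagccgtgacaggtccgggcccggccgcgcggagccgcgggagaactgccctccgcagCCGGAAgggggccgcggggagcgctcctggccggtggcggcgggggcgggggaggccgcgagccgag
SPRY1, first start, plus strand, chr4:123396545-123396794: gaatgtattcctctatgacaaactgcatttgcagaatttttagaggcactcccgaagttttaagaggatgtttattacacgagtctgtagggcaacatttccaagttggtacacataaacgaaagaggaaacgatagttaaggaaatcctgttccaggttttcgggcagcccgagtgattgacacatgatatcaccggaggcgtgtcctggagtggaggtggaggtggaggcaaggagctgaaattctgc
SPRY4, minus strand, chr5:142324248-142324497: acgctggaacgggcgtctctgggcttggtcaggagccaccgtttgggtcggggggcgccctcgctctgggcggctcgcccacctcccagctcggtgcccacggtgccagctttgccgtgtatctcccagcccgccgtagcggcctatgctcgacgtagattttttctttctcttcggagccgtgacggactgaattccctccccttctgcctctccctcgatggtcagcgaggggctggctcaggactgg
FGFR2, outermost start, minus strand, chr10:121598445-121598694: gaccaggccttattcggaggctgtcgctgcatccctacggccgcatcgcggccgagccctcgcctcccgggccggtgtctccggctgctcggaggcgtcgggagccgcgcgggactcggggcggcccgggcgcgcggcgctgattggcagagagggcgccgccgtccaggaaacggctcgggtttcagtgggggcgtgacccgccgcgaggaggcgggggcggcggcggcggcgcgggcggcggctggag
Windows were matched by symbol for 7 of the 10 genes (FGFR2, FGFR3, FGFR4, SPRED1, SPRY1, SPRY2 and SPRY4), 15 in all, and both strands were searched. FGFR1 was left out of the search beforehand, and ETV4 and ETV5 had no window. The second SPRY1 window holds both motifs, the STAT letters TTCTTGGAA 188 bases and the ETS core 67 bases before the start. TTCNNNGAA is in 1 of the 15 windows and in 6.57% of all 35116 RefSeq windows of that length. CCGGAA is in 2 of the 15 (SPRY1 and SPRY2) and in 14.5% of all. The octamers TGAATGAA and TGAATGGA, which the repressor CIC binds, are in 0 of the 15, and in 1.40% and 0.832% of all. The GC box GGGCGG, left in lower case here, is in 8 of the 15 and in 42.6% of all. A match is a string of letters in this window and says nothing of binding.

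SPRY1 (NCBI gene 10252, chromosome 4, 123396795 to 123403760, plus strand) had 2.03, 2.81 and 2.68 CPM in controls and 7.75, 7.82 and 7.59 CPM with PRL. Its groups were far apart, and the PRL libraries lay close together. The means of 2.51 ± 0.415 and 7.72 ± 0.118 CPM gave a log2 ratio of 1.62 (SE 0.16, adjusted p by edgeR = 1.5e-05), or 3.06-fold. SPRY1 was the most abundant Sprouty member in the PRL group per length, at 5.32 ± 0.193 TPM, while in controls its 1.14 ± 0.346 TPM overlapped the range of SPRY2 (1.13 ± 0.381 TPM). The implied SPRY1 transcript length was 3192, 3043 and 2758 bases in controls and 2612, 2625 and 2621 bases in the PRL group, shorter in every PRL library.

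SPRY4 (NCBI gene 81848, chromosome 5, 142310427 to 142326455, minus strand) was scarce in controls, as was ETV5, with 5, 2 and 4 counts for the controls and 37, 22 and 23 counts in the PRL libraries. The groups did not overlap, and PRL replicate 1 was the highest. Its level went from 0.239 ± 0.106 to 1.52 ± 0.457 CPM, with a log2 ratio of 2.65 (SE 0.42, adjusted p by edgeR = 3.3e-04). The ratio of summed counts was 6.44, with a 95% binomial interval (exact) of 3.42 to 13.4 that covers counting error only. Leaving out any 1 library kept the call, with log2 ratios of 2.35 to 2.97. SPRY4 passed the filter on low counts only through its PRL libraries. At such control counts a gene could be tested only if its PRL counts were higher, so the direction of the call was not open. With no filter, edgeR gave SPRY4 an adjusted p of 1.4e-04.

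SPRY2 (NCBI gene 10253, chromosome 13, 80335976 to 80340951, minus strand) had 1.42, 2.23 and 1.56 CPM in controls and 2.16, 2.31 and 2.97 CPM with PRL. Control replicate 2 lay above PRL replicate 1, and the gene did not pass (log2 ratio 0.51, SE 0.25, adjusted p by edgeR = 0.0976). Without control replicate 2 it did, at 0.72 (adjusted p by edgeR = 0.0348). It also passed with library totals as the scaling (log2 ratio 0.76, adjusted p by edgeR = 0.0288).

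SPRED1 (NCBI gene 161742, chromosome 15, 38252326 to 38357249, plus strand) encodes a Sprouty-related protein that brings the RAS inactivator neurofibromin to the membrane. It had 6.91, 6.95 and 7.05 CPM in controls and 4.15, 4.18 and 5.82 CPM with PRL, with PRL replicate 3 nearest to the controls. The means were 6.97 ± 0.0704 and 4.72 ± 0.954 CPM (log2 ratio -0.56, SE 0.16, adjusted p by edgeR = 0.0104). This fall is the least secure of the calls. With edgeR it ended without PRL replicate 1 (adjusted p = 0.0535) or 2 (adjusted p = 0.0537), and with library totals (adjusted p = 0.139). On TPM the groups overlapped, at 1.25 ± 0.153 and 1.13 ± 0.202.

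Of 3 relatives of these inhibitors, SPRY3 and SPRED2 passed the test. SPRY3 rose from 0.447 ± 0.176 to 1.32 ± 0.0959 CPM (log2 ratio 1.53, adjusted p by edgeR = 0.00257). SPRY3 had only 4, 7 and 10 counts in controls and, like SPRY4, passed the filter on low counts only through its PRL libraries. SPRED2 rose from 15.6 ± 2.21 to 22.6 ± 2.06 CPM (0.53, adjusted p by edgeR = 0.00301), the direction opposite to that of SPRED1. SPRED3 did not pass, at 2.78 ± 0.696 and 2.82 ± 0.873 CPM. SPRED2 was thus the SPRED gene with the most counts in both groups.

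ETV4 and ETV5 encode PEA3-type ETS factors whose transcripts follow FGF-ERK signalling in many tissues. ETV4 (NCBI gene 2118, chromosome 17, 43527844 to 43579620, minus strand) had 3.12, 1.79 and 3.06 CPM in controls and 4.76, 3.85 and 2.80 CPM with PRL. PRL replicate 3 lay within the control range, and the gene did not pass (log2 ratio 0.52, SE 0.26, adjusted p by edgeR = 0.105). With library totals it did (0.78, adjusted p by edgeR = 0.0247). Of its exon bases 1.89% are shared with DHX8 on the opposite strand. ETV5 (NCBI gene 2119, chromosome 3, 186046308 to 186110318, minus strand) had 4, 3 and 6 counts in controls and 7, 14 and 3 in the PRL group. Of its exon bases 2.83% are shared with DGKG on the same strand. PRL replicate 2 held most of its PRL counts and PRL replicate 3 no more than the lowest control. The ratio of summed counts was 1.60, with an exact 95% binomial interval of 0.781 to 3.41, so no difference was detectable at this depth. With no filter, edgeR gave an adjusted p of 0.399. The third PEA3 gene, ETV1, did not pass (0.811 ± 0.310 and 1.30 ± 0.219 CPM, adjusted p by edgeR = 0.101), but passed with library totals.

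The rest of the pathway was read from 7 lists of genes. Their counts of calls stand beside 32.4% higher and 30.5% lower over all genes tested, and no list was tested against the rest. Of 18 secreted FGF genes, 13 were found, and only 2 passed the filter on low counts. FGF7, a ligand of the epithelial form of FGFR2 that is made chiefly by stroma, had 0.678, 0.829 and 0.936 CPM in controls and 1.88, 2.09 and 2.45 CPM with PRL (log2 ratio 1.38, adjusted p by edgeR = 9.7e-04). FGF5 had 4.34, 7.08 and 3.06 CPM in controls and 1.99, 1.87 and 2.28 CPM with PRL (-1.23, adjusted p by edgeR = 0.00385). The summed level of 6 stromal markers was 11.4 to 16.1 TPM in controls and 23.8 to 24.7 TPM with PRL. COL1A1 made up nearly all of it, at 11.3, 15.9 and 11.6 TPM against 24.5, 24.2 and 23.6 TPM, and the other 5 genes did not pass the filter on low counts. The part of stromal cells in the FGF7 value was not tested. In neither ligand did the groups overlap, with control replicate 2 the highest for FGF5. The remaining ligands found were each under the filter, among them FGF2, at 0.278 ± 0.0877 and 0.264 ± 0.316 CPM.

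Of 20 tested genes for co-receptors and ligand handling, 8 were higher and 7 lower, near the shares over all genes (32.4% and 30.5%), with a median log2 ratio of 0.03 beside 0.01 for all genes. With library totals 9 were higher and 3 lower. FGFBP1, a secreted carrier that releases FGFs from the matrix, fell from 4.41, 3.89 and 3.87 CPM to 0.554, 0.165 and 0.457 CPM (log2 ratio -3.35, adjusted p by edgeR = 1.1e-05). GPC6, a glypican heparan sulfate proteoglycan, fell from 10.8 ± 0.649 to 1.58 ± 0.112 CPM. SDC2, a syndecan proteoglycan, rose from 3.26 ± 1.17 to 18.6 ± 1.79 CPM, and HS6ST1, an enzyme that sulfates heparan sulfate, from 17.8 ± 2.36 to 53.0 ± 1.35 CPM. The adjusted p in edgeR of these 3 were 2.3e-07, 3.9e-06 and 7.0e-07. FGFRL1, the receptor relative without a kinase domain, rose from 30.3 ± 4.50 to 44.5 ± 1.82 CPM (0.55, adjusted p by edgeR = 9.7e-04).

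Adaptor genes of the receptors were higher in 8 of 12, beside 32.4% of all genes, and none was lower, beside 30.5% (median log2 ratio 0.56), and with library totals 11 and none. FRS2, the docking protein of FGF receptors, rose from 34.0 ± 3.26 to 50.0 ± 1.45 CPM (0.55, adjusted p by edgeR = 2.8e-04). CBL, a ubiquitin ligase that sends activated receptors to degradation, rose from 4.47, 5.10 and 8.17 CPM to 18.3, 18.7 and 16.5 CPM (1.59, adjusted p by edgeR = 4.2e-05). GAB1, SHC1 and SOS2 rose by 0.98, 0.90 and 0.86 on the log2 scale, with adjusted p in edgeR of 4.9e-05, 4.5e-06 and 4.9e-05. GRB2 had 124.8 ± 2.06 and 135.6 ± 4.45 CPM and did not pass (adjusted p by edgeR = 0.152). It passed in 5 of 17 alternatives: upper quartile, library totals, FPKM and TPM with either pseudocount.

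In the RAS to ERK core 4 of 12 genes were higher, near the 32.4% of all genes, and 5 were lower, beside 30.5% (median log2 ratio -0.01). With library totals 6 were higher and 2 lower, with a median of 0.24. HRAS fell from 158.0, 120.6 and 101.2 CPM to 43.1, 39.9 and 42.2 CPM (-1.60, adjusted p by edgeR = 7.0e-06). The scaffold gene KSR1 rose from 2.69 ± 0.234 to 10.0 ± 0.490 CPM (1.89, adjusted p by edgeR = 1.9e-06). The kinase genes upstream of ERK parted: MAP2K1 rose by 0.93 and MAP2K2 fell by 0.77 on the log2 scale (adjusted p by edgeR = 1.1e-04 and 3.1e-04).

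**Figure D4:**
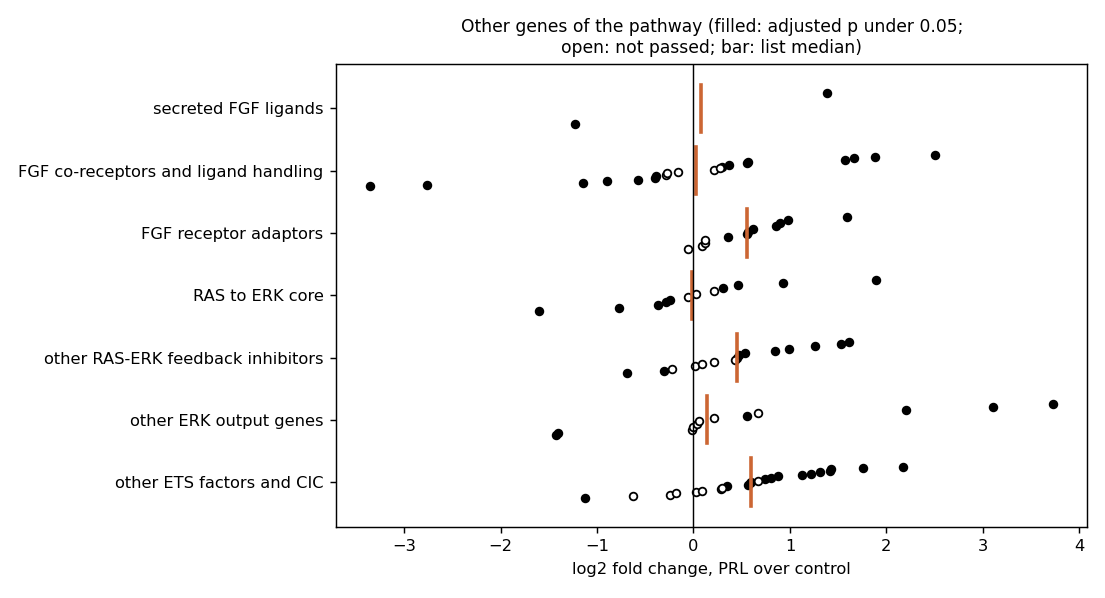
Log2 ratio of PRL over control (horizontal axis) for the tested genes of 7 other lists of the pathway, with filled points for an adjusted p under 0.05, open points for genes that did not pass and a vertical bar at each list's median. The adaptor list has a median of 0.56 with no gene lower, and the RAS to ERK core a median of -0.01 with 4 genes higher and 5 lower.

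Of 15 genes listed as other inhibitors of RAS-ERK signalling, 8 were higher, beside 32.4% of all genes, and 2 lower, beside 30.5% (median log2 ratio 0.45). With library totals 11 were higher and 1 lower. DUSP5 and DUSP4, nuclear phosphatases that ERK signalling induces, rose from 8.65 ± 0.505 to 20.7 ± 1.17 CPM and from 9.67 ± 0.460 to 17.4 ± 1.41 CPM (adjusted p by edgeR = 4.1e-06 and 7.2e-05). DUSP6, the cytoplasmic ERK phosphatase and a usual companion of Sprouty genes in FGF responses, had 1.97, 1.91 and 3.18 CPM in controls and 1.88, 2.09 and 2.11 CPM with PRL. Its groups overlapped and it did not pass (-0.22, SE 0.25, adjusted p by edgeR = 0.464). Its sign changed with library totals and without control replicate 3, with values of -0.36 to 0.08 over 14 alternatives. SPSB1, counted in this list although it is not an established inhibitor of RAS-ERK signalling, rose from 2.93 ± 0.659 to 9.02 ± 0.573 CPM (adjusted p by edgeR = 2.2e-05). PEBP1 fell from 567.4 ± 77.0 to 352.5 ± 3.28 CPM (adjusted p by edgeR = 1.9e-04).

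Other genes used to read ERK output were higher in 4 of 12, near the 32.4% of all genes, and lower in 2, beside 30.5% (median log2 ratio 0.13), and with library totals in 7 and 2. FOS rose from 0.938 ± 0.351 to 12.6 ± 1.47 CPM and IER3 from 76.6 ± 6.96 to 661.1 ± 22.1 CPM (adjusted p by edgeR = 4.4e-07 and 2.8e-09). The cyclin gene CCND1 fell from 219.1 ± 36.8 to 83.2 ± 5.10 CPM and the ephrin receptor gene EPHA4 from 9.73 ± 0.367 to 3.60 ± 0.443 CPM (adjusted p by edgeR = 5.5e-06 and 1.3e-05). PHLDA1 and EPHA2 did not pass (adjusted p by edgeR = 0.933 and 0.302). EPHA2 passed with library totals and on TPM with either pseudocount, and the sign of PHLDA1 changed in 9 of 16 alternatives.

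Of 23 tested genes for other ETS factors, for CIC and for its partners, 14 were higher, beside 32.4% of all genes, and 1 lower, beside 30.5% (median log2 ratio 0.60), and with library totals 18 and 1. The epithelial ETS genes ELF3, ELF5 and EHF rose, from 25.6 ± 2.21 to 115.1 ± 2.56 CPM, from 44.2 ± 5.20 to 119.0 ± 3.48 CPM and from 260.4 ± 4.63 to 564.5 ± 8.24 CPM. ETV7 rose from 3.58 ± 0.413 to 12.2 ± 1.94 CPM. The adjusted p in edgeR of these 4 were 1.8e-08, 8.3e-07, 1.0e-06 and 9.3e-06. The repressor gene CIC, which represses ETV4 and ETV5 when ERK is inactive, rose from 46.2 ± 2.56 to 69.4 ± 3.22 CPM (0.59, adjusted p by edgeR = 9.2e-05).

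The genes whose 6 library values ran closest to each member were found among 11113 genes with a mean of at least 5 CPM, by the root mean square difference of log2 CPM after each gene was centred on its own mean. For FGFR2 these were HEG1 (difference 0.09) and KRT23 (0.11), which had log2 ratios of -1.77 and -1.78. FGFR1 ran closest to ZNFX1 and DENND1C (both 0.05). SPRY1 ran closest to RALGDS (0.07) and L1CAM (0.08). For SPRED1 the nearest were BAG2 and DDX28 (both 0.09), and for FGFR3 ZNF324 and PARP8 (both 0.04). FGFR4 was followed by DIP2C (0.02) and GCA (0.03), and SPRY2 by HCN3 and RNF227 (both 0.10). The scarcer SPRY4 and the more scattered ETV4 had no gene as close: PFKFB4 and TENT5C lay 0.27 from SPRY4, and TTC33 and ZNF765 lay 0.18 and 0.19 from ETV4. SPRY2, SPRY4 and ETV4 themselves had means under 5 CPM, so genes as scarce as these were not compared, and the distances depend on that limit.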

How the data were processed

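Total RNA of 6 T47D libraries had been extracted with Trizol, per the labels. Software named in the submitters' processing notes is HISAT2 2.1.0 and Bowtie2 2.3.4.3, with the build GRCh38.p13. Not given in the sources used here: the counter, the annotation and whether strand was used. Per the file headers, the authors deposited 1 table of 3 measures per gene and library (estimated count, FPKM, TPM). The deposited expected counts (44.1% to 45.9% not whole) were rounded here. The authors scaled FPKM to length and library size, and TPM to length and the sum over genes, per the file headers. The authors' 6 columns of group means were not used.

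Libraries were grouped by title. Genes were tested on all 6 libraries in R 4.3.3 with edgeR 4.0.16 (filter on low counts by group, TMM, robust quasi-likelihood, group as the only term, two-sided, Benjamini-Hochberg over 14076 genes, threshold 0.05). SE is the absolute log2 fold change over the root of F. Alternatives were other scalings and filters, DESeq2 1.42.0, limma 3.58.1 (voom, or log2 FPKM with pseudocount 1 or log2 TPM with pseudocount 1 or 0.1, for genes with a mean of at least 1), a replicate block and each library left out. The tests were also run on simulated counts in which few genes changed, about evenly up and down. Far more genes were called here, so that run cannot check the scaling between libraries. The 10 genes and the lists were chosen with earlier results of these data known. Named genes are the 10, PRL, the 4 smallest adjusted p that passed per list, close relatives and the 2 nearest genes per member. FRS2, GRB2, DUSP6, PHLDA1, EPHA2, FGF2, CIC and the single cell type markers were added after their values were seen. Coordinates are from GENCODE 29. A level of 3 counts, the floor, is 0.172 to 0.185 CPM before TMM. Reads copied by PCR are not independent, so intervals cover counting error only. Receptor reads that fit several paralogs may have been split.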

Additional observations from a re-analysis of the deposited data

How the results depend on the processing

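FGFR1, FGFR2, FGFR3, FGFR4 and SPRY1 kept direction and call in all 17 alternatives, and SPRY4 in the 14 that tested it. The number of genes lower in the PRL group moved from 4300 to 2394 with library totals, 2360 on FPKM, and 1381 and 1371 on TPM with a pseudocount of 1 and 0.1. The number higher moved from 4554 to 7113 and 7034 on TPM. Of the 10 genes, 2 were lower in the main analysis and 1 with library totals, on FPKM (where SPRED1 was not tested) and on TPM with either pseudocount. Leaving out 1 library gave 1 to 2. The scalings differ in centre: over all genes the median log2 ratio was 0.26 with library totals and 0.20, 0.39 and 0.44 on FPKM and on TPM with a pseudocount of 1 and 0.1. SPRED1 lay at -0.31 with library totals and at -0.08 and -0.14 on TPM (adjusted p = 0.139, 0.576 and 0.591). SPRY2 and ETV4 passed with library totals, on FPKM (adjusted p = 0.0280 and 0.0235) and on TPM. From counts, not per length, the change in share was 10.3 percentage points for FGFR1, -20.2 for FGFR2 and 3.84 for FGFR4, against 7.48, -18.4 and 5.42 from TPM. Same-numbered libraries had correlations of -0.105, 0.043 and -0.057 between their deviations, and unmatched ones -0.064 to 0.129. With deviations taken within groups of 3, this cannot exclude that same-numbered libraries shared a culture or a day. With the replicate number as a block, log2 ratios were 1.20 for FGFR1, -1.66 for FGFR2 and -0.57 for SPRED1, and no call among the 10 genes changed. Depth limits SPRY4 and ETV5, with 11 and 13 counts over the controls.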
